A study of Arabidopsis thaliana with 6 samples.

Results

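The genes described are the long non-coding RNA (lncRNA) genes of Arabidopsis thaliana that were detected in seedlings exposed to yttrium oxide nanoparticles or grown without them. They were chosen by measured level: the authors' table had to give a gene the biotype lncRNA, and its mean over the 6 libraries had to be at least 0.5 FPKM. FPKM is the number of fragments per kilobase of gene model, scaled to the depth of the library. The table held 32948 genes, of which 3481 were lncRNA genes and 271 met the rule. A further 814 had reads but averaged under 0.5 FPKM, and 2396 had 0 reads in all 6 libraries. The rule used the mean over both groups, so the levels are given as a description. The treated group was wild-type (WT) seedlings on MS medium, which is widely used for plant tissue culture, with 20 mM yttrium oxide nanoparticles. The control group was WT seedlings on MS medium alone. Both were sampled at 6 h, with 3 libraries in each group. The age and accession of the plants and the number of plants per sample are not given in the labels. Whether the 3 samples in each group were grown as separate cultures is not stated either. The p-values therefore cover the spread among these libraries, and that spread may be technical.

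Long non-coding RNAs are transcripts longer than the small RNA classes that carry no recognised protein-coding sequence. In plants many of them are transcribed from the strand opposite a coding gene and are then called natural antisense transcripts, while others lie between genes. A few have described roles, such as antisense transcripts at the flowering repressor gene FLC and target mimics that hold back a phosphate-responsive microRNA, but most annotated ones have no assigned function. None of the 271 genes carried a symbol other than its gene ID in the table, so they are named by ID, and roles are given only for the coding genes beside them.

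Of the 271 genes, 117 lay wholly inside a protein-coding gene on the other strand, 44 lay partly over such a gene, and 110 shared no base with one. The share with any such overlap was 59.4% among the 271 genes and 37.4% among the other 3210 lncRNA genes. The TAIR10.1 reference annotation notes 156 of them as natural antisense transcripts, 149 of which overlap a coding gene on the other strand in the authors' table. A single exon was annotated for 202 of them (74.5%), against 84.8% of the other lncRNA genes, and their median gene model was 421 bases long, against 322.5. Their gene models ran from 200 to 7249 bases.

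The 3 genes printed here show how a member sits inside its coding partner. Each is read 5′ to 3′ on its own strand from the reference genome (TAIR10 coordinates), with capitals for the bases that are exon of the coding gene on the other strand. AT1G05023 at chr1:4694951-4695230, plus strand, lies inside PGL1, which encodes a 6-phosphogluconolactonase. AT2G08965 at chr2:16108698-16108969, minus strand, lies inside WRKY33, which encodes a transcription factor of pathogen defence. AT3G03105 at chr3:5181021-5181298, plus strand, lies inside MT3, which encodes a metallothionein, a small metal-binding protein.
AT1G05023: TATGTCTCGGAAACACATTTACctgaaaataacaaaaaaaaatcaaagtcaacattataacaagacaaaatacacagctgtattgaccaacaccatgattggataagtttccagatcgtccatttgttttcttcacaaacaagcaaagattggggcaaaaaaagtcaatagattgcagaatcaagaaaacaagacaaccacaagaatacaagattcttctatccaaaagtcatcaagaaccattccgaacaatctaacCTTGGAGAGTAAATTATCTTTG
AT2G08965: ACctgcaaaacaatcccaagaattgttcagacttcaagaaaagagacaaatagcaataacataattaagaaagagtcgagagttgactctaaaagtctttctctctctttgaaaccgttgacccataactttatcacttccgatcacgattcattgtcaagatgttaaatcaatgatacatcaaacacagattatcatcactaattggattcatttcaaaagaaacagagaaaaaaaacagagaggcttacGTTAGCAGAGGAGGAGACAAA
AT3G03105: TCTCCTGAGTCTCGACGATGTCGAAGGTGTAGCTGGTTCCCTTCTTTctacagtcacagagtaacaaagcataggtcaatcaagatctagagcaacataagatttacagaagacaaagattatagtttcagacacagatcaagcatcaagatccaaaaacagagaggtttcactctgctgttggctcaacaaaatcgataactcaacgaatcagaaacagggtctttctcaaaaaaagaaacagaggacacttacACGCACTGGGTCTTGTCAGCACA
In each of the 3 the lower-case run is 1 stretch that starts with ct and ends with ac, which on the coding strand reads as the gt and ag at the ends of an intron. AT1G05023 thus consists of 236 bases of partner intron and 44 bases of partner exon, AT2G08965 of 249 and 23 bases, and AT3G03105 of 208 and 70 bases. The reference gives MT3 2 transcripts whose introns here end 6 bases apart, and bases that are exon in either of them are in capitals.

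This layout was common. The 117 genes wholly inside a coding gene had a median of 88.0% of their exon bases in introns of the partner, and 108 of them had at least 50%. At least 1 whole intron of the partner was contained in 74 of them, and exactly 1 in 51. Introns of different transcripts that differ in an end were counted separately, as for AT3G03105. From the ends of the lncRNA gene to the outermost contained introns the median distance was 22 bases on the shorter side and 24 on the longer side. Among all lncRNA genes wholly inside a coding gene, 74 of the 332 that held a whole partner intron were detected by the rule (22.3%), against 43 of the 577 that held none (7.45%).

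Detection varied with where the exons lay. All 430 lncRNA genes whose exon bases lay entirely on exons of a coding gene on the other strand had 0 reads in all 6 libraries. Of the 249 with above 75% and under 100% of their bases there, 182 had 0 reads and 1 met the rule (0.402%). The share that met the rule was 9.78% of 184 genes between 50 and 75%, 22.8% of 145 genes between 25 and 50%, and 29.7% of 313 genes above 0 and up to 25%. It was 5.83% of the 2160 lncRNA genes with no base on such an exon, 1569 of which had 0 reads. The converse held for coding genes. Of 66 coding genes whose exon bases lay entirely on lncRNA exons of the other strand, 65 were listed at 0 in every library (98.5%), against 14.6% of the 26075 coding genes with no such base. The strand setting of the counting is not given in the sources used here, so for the overlapping members reads of the lncRNA and reads of its coding partner, unspliced ones included, cannot be told apart. A listed 0 for a gene whose exons lie on exons of the other strand may be a loss in counting. It need not mean that the gene was silent, and this was not tested.

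**Figure D1:**
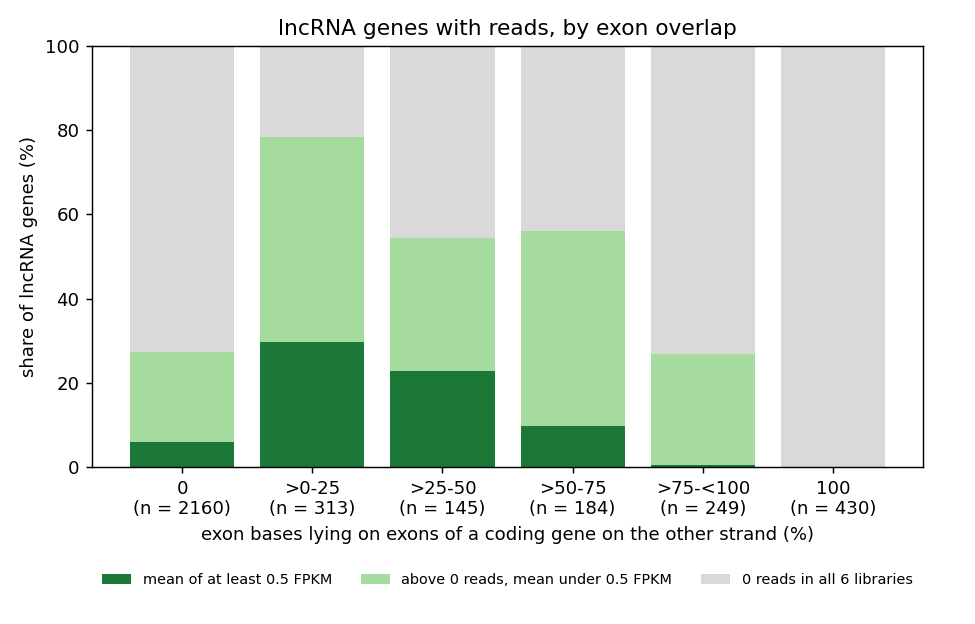
Share of lncRNA genes (vertical axis, percent) with a mean of at least 0.5 FPKM, with reads but a lower mean, or with 0 reads in all 6 libraries, by the percent of their exon bases that lie on exons of a coding gene on the other strand (horizontal axis, number of genes below each bar). The share with a mean of at least 0.5 FPKM is 29.7% above 0 and up to 25%, and all 430 genes at 100% have 0 reads.

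The 271 genes were expressed at low levels. Their median level was 1.10 FPKM, and the median depth behind it was 11.7 reads per library, with a range of 2.33 to 575 reads. Only 152 averaged at least 10 reads per library, and 33 had 0 reads in at least 1 library. The libraries held 19314683 to 23374306 reads assigned to genes, of which the 271 genes took 0.0428 to 0.0495%. Where no read was counted, up to 3 reads remain possible, equal to 0.129 to 0.154 FPKM in a 1 kb gene and to more in a shorter one. This limit and the intervals below describe counting error alone, because PCR copies of a molecule are not independent. At the edge of the rule, AT1G04983, AT5G02605 and AT1G09897 averaged 0.5005, 0.5013 and 0.502 FPKM, and AT5G15022, AT3G04285 and AT1G08947 fell short with 0.499, 0.499 and 0.4997 FPKM. These 6 genes had 2.5 to 8 reads per library on average.

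**Figure D2:**
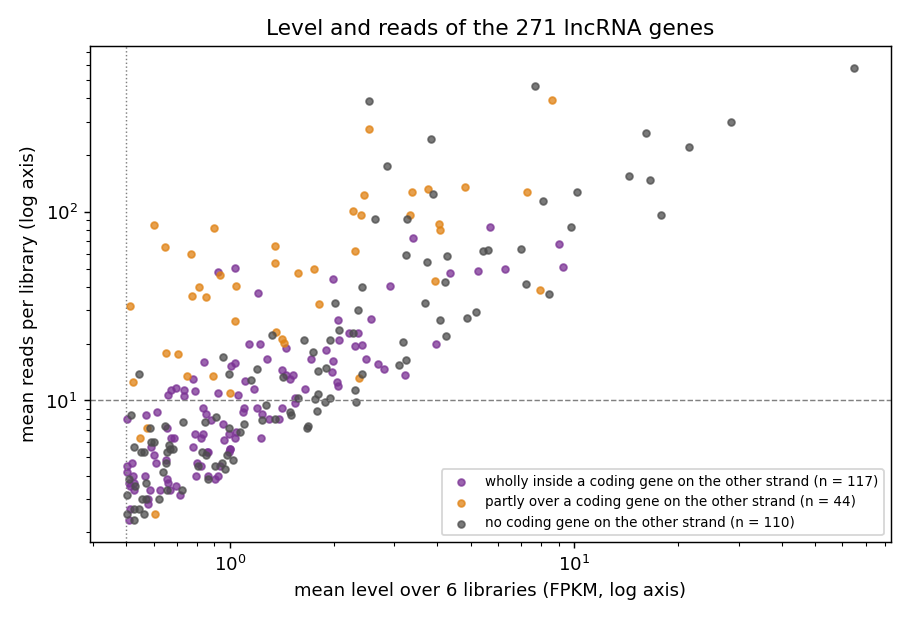
Mean level over the 6 libraries (horizontal axis, FPKM, log scale) against mean reads per library (vertical axis, log scale) for the 271 lncRNA genes, 1 point per gene, coloured by overlap with a coding gene on the other strand. The dotted line is the 0.5 FPKM of the rule and the dashed line is 10 reads, which 152 genes reach.

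The 8 genes with the highest mean level held 19.6% of all reads on the 271 genes, and none of the 8 shared a base with a coding gene on the other strand. AT1G07323 (chromosome 1, 17295588 to 17296007, minus strand) was first by a wide margin, with 56.9, 61.4 and 58.8 FPKM in treated libraries 1, 2 and 3, against 69.4, 74.6 and 68.2 FPKM in control libraries 1, 2 and 3. Its treated values all lay below its control values. The difference did not pass the threshold (log2 change -0.26, SE 0.0995, limma adjusted p = 0.124). AT2G24592, AT1G08847, AT3G05945 and AT3G08065 averaged 21.6, 17.9, 16.5 and 10.2 FPKM, with overlapping groups and log2 changes of -0.12, -0.16, 0.16 and 0.03. AT4G38932, which lies 34 bases from its nearest gene and is noted as a natural antisense transcript in the reference, had 23.2, 11.8 and 27.5 FPKM in treated libraries and 13.1, 10.15 and 11.2 FPKM in controls. Treated library 2 lay within the control range, and the log2 change of 0.76 did not pass (SE 0.291, limma adjusted p = 0.132). The other two of the 8, AT3G06355 and AT1G07367, rose and are described below.

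Changes were tested with limma on log2(FPKM + 0.5), with Benjamini-Hochberg adjustment over all 20007 genes that averaged at least 0.5 FPKM and a threshold of 0.05. On this scale the changes of low genes are understated. Of all tested genes 14.5% passed, 7.86% higher and 6.61% lower in treated seedlings. Of the 271 lncRNA genes 23 passed (8.49%), 11 higher and 12 lower. At an unadjusted p under 0.05 the number was 53. The groups did not overlap for 52 of the 271 genes (19.2%), against 35.5% of all tested genes. The median log2 change was -0.06, with 127 genes above 0 and 144 below, and over all tested genes it was -0.004. On reads recovered from the FPKM values edgeR passed 11 lncRNA genes as higher and 4 as lower, 13 of them among the 23, with 16.1% of all genes passed. There DESeq2 passed 12 and 5, also with 13 among the 23, and 19.3% of all genes. Without control library 1 limma passed 10 as higher and 2 as lower, and without control library 2 it passed 4 and 5.

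Genes with more reads passed more often when split by reads alone. The share was 11.2% of the 152 genes with at least 10 reads per library and 5.04% of the 119 genes with fewer, where the background over all genes was 14.6% and 7.68%. By level it was 24.0% of the 25 genes of at least 5 FPKM, 9.68% of the 124 genes from 1 to 5 FPKM and 4.10% of the 122 genes under 1 FPKM, against 14.1%, 15.8% and 13.4% of all tested genes in the same ranges. By position, 14 of the 110 genes with no coding gene on the other strand passed (12.7%, 5 higher and 9 lower), 8 of the 117 wholly inside one (6.84%, 5 higher and 3 lower) and 1 of the 44 partly over one (2.27%, higher). This last class had the most reads, with a median of 44.8 per library and 41 of 44 genes at 10 or more, against a median of 10.3 for the genes with no overlap, so the classes did not follow the order of reads. Because the rule asks only for a mean over both groups, 57 members reached 0.5 FPKM in 1 group's mean alone. That group was treated for 27 and control for 30, and 7 of these are among the 23. They are AT5G07995, AT1G04323, AT1G06687 and AT1G05833 in control, and AT1G05023, AT2G08965 and AT5G09785 in treated. These 7 met the rule through the group where they were higher, so the rule favoured their calls. The 10 largest rises and 10 largest falls are described here, and AT2G26355, AT1G05833 and AT1G04477 were added after their values were seen, to complete the 23.

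**Figure D3:**
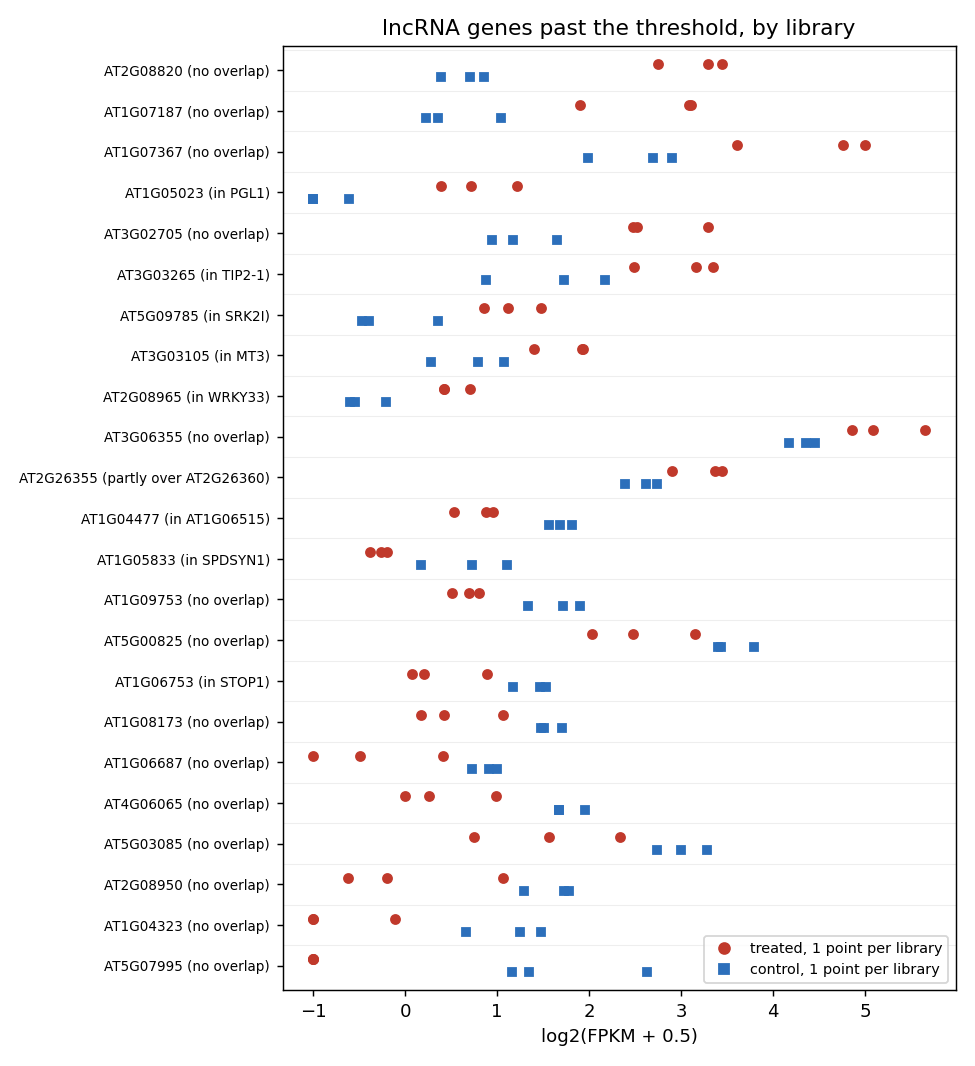
Level of the 23 lncRNA genes past the threshold in each library (horizontal axis, log2 of FPKM plus 0.5), treated libraries as red circles above control libraries as blue squares, ordered by log2 change. The groups do not overlap for any of the 23 genes, and all treated libraries of AT5G07995 are at 0 reads.

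Among the genes away from coding genes on the other strand, 5 rose in treated seedlings. The largest of these rises was that of AT2G08820 (chromosome 2, 15403144 to 15403901, minus strand), which had 10.4, 9.33 and 6.22 FPKM in treated libraries 1, 2 and 3 and 1.32, 1.13 and 0.814 FPKM in control libraries 1, 2 and 3. Every treated value was above every control value by a wide gap. It averaged 8.66 ± 2.18 FPKM in treated seedlings and 1.09 ± 0.255 FPKM in controls (SD, n = 3 each), with a log2 change of 2.51 (SE 0.221, limma adjusted p = 0.000226). The call held with each library left out in turn. AT2G08820 shares 323 bases with another lncRNA gene of the 271, AT2G08825 on the other strand, which had 1.42, 0 and 1.75 FPKM in treated libraries and 0 FPKM in every control. With treated library 2 at 0 its groups overlapped, and its log2 change of 1.37 did not pass (SE 0.535, limma adjusted p = 0.134). Reads of both lncRNA genes cannot be told apart in the bases they share, because the strand setting of the counting is not given. The nearest tested coding gene, PCMP-E44, 1030 bases away on the same strand, had a log2 change of -0.19 (SE 0.137, limma adjusted p = 0.406).

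AT1G07187 (chromosome 1, 16471282 to 16471983, minus strand) had 8.11, 3.25 and 7.97 FPKM in treated libraries and 0.779, 1.56 and 0.674 FPKM in controls. Treated library 2 was the lowest of its group and still above the highest control. The log2 change was 2.15 (SE 0.366, limma adjusted p = 0.00797), and the call held without any 1 library. CYFBP, which encodes a cytosolic fructose-1,6-bisphosphatase of sucrose synthesis, lies 781 bases away on the other strand and also rose (log2 change 0.67, SE 0.167, limma adjusted p = 0.0314). AT3G02705 (chromosome 3, 4372837 to 4373081, minus strand) had 5.06, 9.31 and 5.235 FPKM in treated libraries and 2.64, 1.42 and 1.75 FPKM in controls, with no overlap. It rose by 1.51 on the log2 scale (SE 0.270, limma adjusted p = 0.00857), and this held without any 1 library. Among the coding genes beside it on the other strand, AT3G13433, 1132 bases away, and AT3G13435 rose as well, with log2 changes of 1.78 and 0.95. AT3G13432, which lies nearer, and AT3G13437 had log2 changes of -0.15 and 0.55 that did not pass.

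AT1G07367 (chromosome 1, 17388989 to 17389500, plus strand) was the most abundant of the rising genes after AT3G06355, with 26.6, 31.4 and 11.7 FPKM in treated libraries and 6.99, 3.45 and 5.96 FPKM in controls. Treated library 3 was the lowest of its group and above all controls. The log2 change was 1.93 (SE 0.390, limma adjusted p = 0.0174), but the call was lost without treated library 1 (limma adjusted p = 0.0773) and without control library 2 (0.0559). The coding gene AT1G47400, which carries no symbol in the table, lies 2503 bases away on the same strand and had 80.5, 73.8 and 37.1 FPKM in treated libraries against 20.9, 15.0 and 18.8 FPKM in controls. Its log2 change was 1.71 (SE 0.292, limma adjusted p = 0.00892), and treated library 3 was again the lowest of the treated values. A second lncRNA gene of the 271, AT1G07373 on the other strand, 5888 bases from AT1G47400, had 15.4, 16.2 and 6.44 FPKM in treated libraries and 4.34, 1.45 and 4.87 FPKM in controls. Its groups did not overlap and its log2 change was 1.73, just short of the threshold in limma (SE 0.470, limma adjusted p = 0.0503) and past it in edgeR (edgeR adjusted p = 0.0439).

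AT3G06355 (chromosome 3, 14199575 to 14200076, plus strand) had 28.4, 33.6 and 49.8 FPKM in treated libraries and 21.5, 19.95 and 17.6 FPKM in controls. All treated values were above all controls, and the log2 change was 0.87 (SE 0.199, limma adjusted p = 0.0237). The call was lost without control library 1, 2 or 3 (limma adjusted p = 0.0646, 0.0705 and 0.0815). This gene is a special case among the 271, because it contains the ribosomal RNA gene AT3G41979, which is listed at 0, and lies 90 bases from the ribosomal RNA gene AT3G41768. AT3G41768 had 318, 193 and 194 FPKM in treated libraries and 126, 242 and 179 FPKM in controls, with overlapping groups and a log2 change of 0.37 (SE 0.280, limma adjusted p = 0.419). The microRNA gene MIR5642a, 2427 bases away on the same strand, rose by 1.34 on the log2 scale (SE 0.330, limma adjusted p = 0.0364). Reads of the ribosomal RNA repeat and of AT3G06355 cannot be told apart in these values.

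Of the same class, 9 genes fell. AT5G07995 (chromosome 5, 21692759 to 21693073, minus strand) had 0 reads in every treated library and 5.68, 1.74 and 2.05 FPKM, or 36, 11 and 15 reads, in control libraries 1, 2 and 3. Set against the 3 reads that a count of 0 allows in each treated library, its level was at least 6.96-fold lower in treated seedlings. Control library 1 carried much of that bound, which was at least 4.18-fold without it. It passed (log2 change -2.71, SE 0.368, limma adjusted p = 0.00231) with all libraries and with each left out in turn. The gene lies 278 bases from AT5G53450, a coding gene on the other strand named PAP14 in the table and ORG1 in RefSeq. That gene moved the opposite way, with 137, 139.9 and 96.7 FPKM in treated libraries against 30.3, 29.1 and 33.2 FPKM in controls (log2 change 1.98, SE 0.156, limma adjusted p = 0.000126). AT1G04323 (chromosome 1, 1446835 to 1447073, plus strand) had 2 reads over the treated libraries and 26 over the controls, or 0, 0 and 0.429 FPKM against 2.29, 1.88 and 1.08 FPKM. No treated value reached the controls. The ratio of reads, treated over control, was 0.0769 with a 95% interval of 0.00885 to 0.307 that covers counting error only, and the gene passed in all fits with 1 library left out (log2 change -1.83, SE 0.323, limma adjusted p = 0.00763).

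AT4G06065 (chromosome 4, 7809070 to 7809438, plus strand) had 0.497, 1.48 and 0.695 FPKM in treated libraries and 3.37, 2.70 and 2.68 FPKM in controls, without overlap. It fell by 1.35 on the log2 scale (SE 0.265, limma adjusted p = 0.0118), a call that was lost only without control library 1 (0.0612). IIL1, which encodes the large subunit of isopropylmalate isomerase in leucine synthesis, lies 1085 bases away on the other strand and fell too (log2 change -0.51, SE 0.121, limma adjusted p = 0.0261). AT5G00825 (chromosome 5, 440987 to 441189, plus strand) had 8.36, 3.59 and 5.05 FPKM in treated libraries and 10.3, 10.07 and 13.3 FPKM in controls. The highest treated value stayed under the lowest control. Its log2 change was -0.99 (SE 0.271, limma adjusted p = 0.0489), and the call was kept only without treated library 1, with limma adjusted p from 0.0560 to 0.137 without any other library. SMR4, a gene for an inhibitor of cyclin-dependent kinases, lies 262 bases away on the other strand and had a log2 change of -0.99 that did not pass (SE 0.297, limma adjusted p = 0.0653).

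AT5G03085 (chromosome 5, 6664186 to 6664456, plus strand) had 1.19, 4.54 and 2.46 FPKM in treated libraries and 7.52, 9.195 and 6.19 FPKM in controls, and fell by 1.46 on the log2 scale (SE 0.374, limma adjusted p = 0.0416). AT2G08950, AT1G06687, AT1G08173 and AT1G09753 fell by 1.52, 1.24, 1.01 and 0.98. Their treated values went up to 1.60 FPKM and their control values started at 1.16 FPKM, with no overlap within any of the 4 genes. For AT1G09753 the call was lost without control library 1 (limma adjusted p = 0.0690) or 3 (0.0542). For AT5G03085 and AT1G08173 it was lost without any control library or without treated library 3, with limma adjusted p from 0.0712 to 0.128. For AT2G08950 and AT1G06687 it was lost with any library left out other than treated library 3, with limma adjusted p from 0.0674 to 0.147. The test of edgeR called AT5G07995, AT1G04323, AT4G06065 and AT5G03085 among the 12 falling genes, with edgeR adjusted p from 0.00681 to 0.0483.

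Inside coding genes 5 lncRNA genes rose, and the partners of 4 of them rose too. For these genes, and for the falling ones below, reads of the lncRNA gene and of its partner cannot be told apart, unspliced ones included. AT1G05023, printed above inside PGL1, had 22 reads over the treated libraries and 1 over the controls, or 1.15, 0.814 and 1.83 FPKM against 0, 0 and 0.154 FPKM. The groups lay far apart, and the ratio of reads was 22.0 with a 95% interval of 3.56 to 908 for counting error. The log2 change was 1.65 (SE 0.269, limma adjusted p = 0.00529), and it passed without any 1 library. PGL1 itself had 16.1, 4.79 and 16.8 FPKM in treated libraries and 1.79, 0.561 and 2.52 FPKM in controls (log2 change 2.57, SE 0.544, limma adjusted p = 0.0210). AT2G08965, printed above inside WRKY33, had 0.844, 0.838 and 1.13 FPKM in treated libraries and 0.366, 0.183 and 0.158 FPKM in controls, on 16 and 4 reads. The groups did not overlap, and the log2 change was 0.97 (SE 0.218, limma adjusted p = 0.0209), lost without treated library 3 and without control library 2 or 3 (limma adjusted p from 0.0650 to 0.0682). WRKY33 had 141, 97.9 and 114 FPKM in treated libraries and 24.1, 16.7 and 32.3 FPKM in controls (log2 change 2.28, SE 0.241, limma adjusted p = 0.00087).

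AT3G03265 (chromosome 3, 5505992 to 5506436, minus strand) lies inside TIP2-1, which encodes a water channel of the vacuole membrane, and had 8.46, 5.12 and 9.68 FPKM in treated libraries and 4.02, 1.34 and 2.80 FPKM in controls. Treated library 2 and control library 1 were the closest values and did not cross. It rose by 1.41 on the log2 scale (SE 0.357, limma adjusted p = 0.0391), and TIP2-1 rose by 1.17 (SE 0.248, limma adjusted p = 0.0196). AT5G09785 (chromosome 5, 26710847 to 26711229, minus strand) lies inside SRK2I, a protein kinase gene of abscisic acid signalling, and had 1.68, 1.31 and 2.28 FPKM in treated libraries and 0.779, 0.260 and 0.224 FPKM in controls. No control reached a treated value, and the log2 changes were 1.32 for the lncRNA gene (SE 0.280, limma adjusted p = 0.0166) and 1.10 for SRK2I (SE 0.125, limma adjusted p = 0.000855). AT3G03105, printed above inside MT3, had 2.15, 3.28 and 3.32 FPKM in treated libraries and 1.61, 0.717 and 1.24 FPKM in controls. Its groups did not overlap and it rose by 1.03 (SE 0.251, limma adjusted p = 0.0284), while MT3 had a log2 change of 0.37 that did not pass (SE 0.207, limma adjusted p = 0.272). The call of AT3G03265 was lost without treated library 1 or 3 or control library 2 or 3 (limma adjusted p from 0.0677 to 0.126). That of AT5G09785 was lost without treated library 3 or control library 2 or 3 (0.0568 to 0.0594), and that of AT3G03105 without treated library 2 or 3 or control library 2 or 3 (0.0504 to 0.0851). On recovered reads AT2G08965 and AT3G03105 passed neither edgeR (edgeR adjusted p = 0.134 and 0.105) nor DESeq2 (DESeq2 adjusted p = 0.293 and 0.176). AT5G09785 passed edgeR (edgeR adjusted p = 0.0486) and missed the threshold in DESeq2 (DESeq2 adjusted p = 0.0645), while AT1G05023 and AT3G03265 passed both.

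The 3 falling genes inside coding genes had partners that did not pass. AT1G06753 (chromosome 1, 12550564 to 12550980, minus strand), inside STOP1, a zinc finger gene of acid and aluminium tolerance, had 0.550, 0.656 and 1.35 FPKM in treated libraries and 2.27, 2.39 and 1.75 FPKM in controls. The groups did not overlap, and it fell by 1.0 on the log2 scale (SE 0.25, limma adjusted p = 0.0316), against a log2 change of -0.0015 for STOP1 (SE 0.134). AT1G05833 (chromosome 1, 8420941 to 8421628, minus strand), inside the spermidine synthase gene SPDSYN1, had 0.334, 0.265 and 0.373 FPKM in treated libraries and 1.66, 1.16 and 0.625 FPKM in controls. Its log2 change was -0.95 (SE 0.267, limma adjusted p = 0.0483), against -0.01 for SPDSYN1 (SE 0.140). AT1G04477 (chromosome 1, 1991587 to 1991970, plus strand), inside AT1G06515, fell by 0.90 (SE 0.181, limma adjusted p = 0.0132), with 1.43, 0.950 and 1.34 FPKM in treated libraries and 2.72, 2.47 and 3.02 FPKM in controls. In all 3 the difference between the change of the lncRNA gene and that of its partner missed the threshold of the pair test described next (limma adjusted p = 0.103, 0.121 and 0.0843). The call of AT1G06753 was kept only without treated library 3, that of AT1G05833 only without control library 3, and that of AT1G04477 was lost without control library 1 (limma adjusted p = 0.0585) or 3 (0.0549). With the lost libraries out, the limma adjusted p of AT1G06753 ranged from 0.0534 to 0.114 and that of AT1G05833 from 0.0779 to 0.163.

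A coding partner of at least 0.5 FPKM was present for 133 of the 161 overlapping genes, and 17 of these partners passed (12.8%). The 116 genes wholly inside such a partner stood at a median of 4.23% of its level per length, with 0.875% and 11.4% at the 10th and 90th percentiles, and the partners had a median of 26.2 FPKM. Partly overlapping genes differed in this. Their partner was listed at 0 in all libraries for 21 of 44, averaged under 0.5 FPKM for 6 and reached it for 17. As above, a listed 0 may be a loss in counting where exons of both strands overlap, and this was not tested. Across the 116 genes wholly inside a partner the log2 changes of the 2 genes of a pair had a Pearson correlation of 0.59 and a Spearman correlation of 0.52, and 73 pairs (62.9%) had the same sign. Over the 53 of these with at least 10 reads the Pearson and Spearman correlations were 0.63 and 0.58. They were 0.28 and 0.20 over the 17 genes partly over a tested partner. Between the 110 genes without overlap and their nearest tested coding gene they were 0.15 and 0.25. Of these 110, 71 shared a sign (64.5%), a share close to that of the genes wholly inside a partner. The points are gene pairs measured in the same 6 libraries, the genes of a pair share sequence, and they are not independent replicates, so these values are descriptions.

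Partners that passed made up little of the set. All 11 genes wholly inside a partner that rose had a log2 change above 0, with a median of 0.67. As higher, 4 of them passed, against 7.86% of all tested genes. Their partners included RCI2A, a cold-inducible membrane protein gene, and SULTR4;2, a vacuolar sulfate transporter gene. Within RCI2A lay AT3G01795, the most abundant gene of this class, with 11.2, 6.62 and 14.9 FPKM in treated libraries and 8.54, 8.18 and 6.23 FPKM in controls. Its groups overlapped, and its log2 change of 0.43 did not pass (SE 0.274, limma adjusted p = 0.343), whereas RCI2A rose by 0.83 (SE 0.163, limma adjusted p = 0.0122). The 3 genes wholly inside a partner that fell had a median of -0.43, and none of them passed or had a change above 0. Of the 102 genes inside a partner that did not pass, 1 passed as higher and 3 as lower, and the median was 0.01. Over all tested genes 7.86% passed as higher and 6.61% as lower. Reads of a gene inside a partner and reads of that partner cannot be told apart, so these counts and signs are descriptions.

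**Figure D4:**
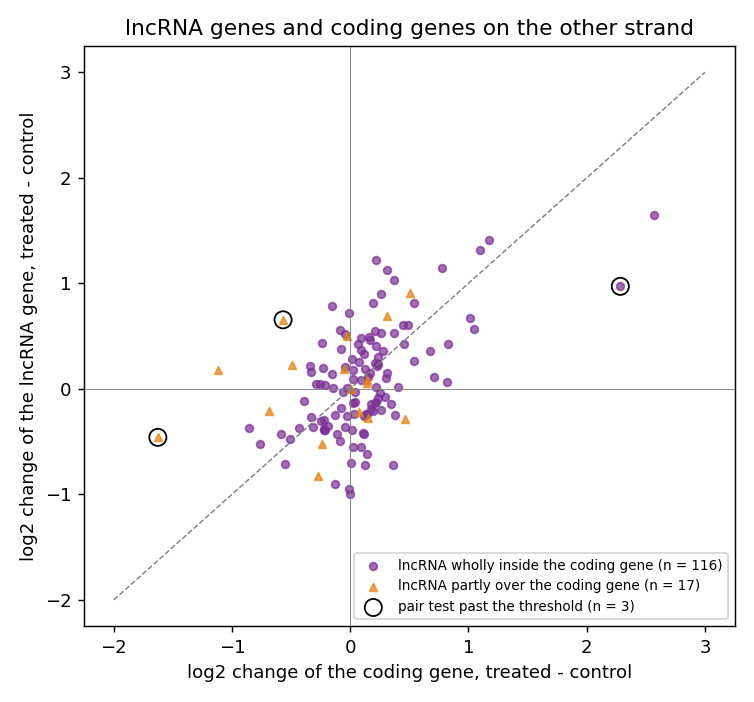
Log2 change of 133 lncRNA genes (vertical axis, treated minus control) against that of the coding gene on the other strand (horizontal axis), 116 wholly inside it and 17 partly over it. The dashed line marks equal changes, and the 3 circled pairs differ past the threshold of the pair test.

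The pair test asked whether the values listed for an lncRNA gene and for its coding partner changed by different amounts. It used limma on the difference of their log2 values. The pairs were all 2005 in the table of a gene and a coding gene on the other strand. Reads of both genes cannot be told apart where they overlap. For a gene wholly inside its partner the test therefore cannot show that separate transcripts changed differently. Of all pairs 14.4% passed, and of the 133 pairs of this set 3 passed. AT2G26355 (chromosome 2, 11220708 to 11221535, plus strand) overlaps the coding gene AT2G26360 by 20 bases and had 9.81, 6.996 and 10.4 FPKM in treated libraries and 6.18, 4.755 and 5.66 FPKM in controls, without overlap of the groups. It rose by 0.65 (SE 0.176, limma adjusted p = 0.0417), with the call kept only without treated library 2 and with limma adjusted p from 0.0819 to 0.140 without any other library. AT2G26360 had a log2 change of -0.57 (SE 0.177, limma adjusted p = 0.0676). The difference of 1.22 (SE 0.240, limma adjusted p = 0.00925) passed with each library left out.

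AT5G01595 (chromosome 5, 226972 to 229286, plus strand) lies partly over FER1, which encodes a ferritin, the iron storage protein of plastids. It had 2.09, 1.38 and 2.33 FPKM in treated libraries and 2.64, 2.83 and 2.93 FPKM in controls, and FER1 had 59.4, 52.2 and 93.2 FPKM in treated libraries and 209, 199 and 208 FPKM in controls. Both sets of treated values lay below the controls. FER1 fell by 1.63 on the log2 scale (SE 0.200, limma adjusted p = 0.00156), whereas the change of -0.46 of AT5G01595 did not pass (SE 0.191, limma adjusted p = 0.150). The difference between the changes was 1.17 (SE 0.304, limma adjusted p = 0.0325) and passed in only 1 of the 6 fits with a library left out, the one without treated library 3, with limma adjusted p from 0.0585 to 0.113 in the other 5. For AT2G08965 and WRKY33 the difference was -1.31 (SE 0.369, limma adjusted p = 0.0420), and with a library left out it passed only without control library 3, with limma adjusted p from 0.0580 to 0.151 in the other 5 fits. With a pseudocount of 0.1 FPKM the difference was -0.64 for AT2G08965 (limma adjusted p = 0.463) and 1.09 for AT5G01595 (limma adjusted p = 0.112). With 1 FPKM it was -1.61 for AT2G08965 (limma adjusted p = 0.00528), so the size of that difference depends on the pseudocount. AT2G08965 averaged 0.938 FPKM in treated and 0.236 FPKM in control libraries, against 118 and 24.4 FPKM for WRKY33. At such low levels the scale understates the change of the lncRNA gene.

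**Figure D5:**
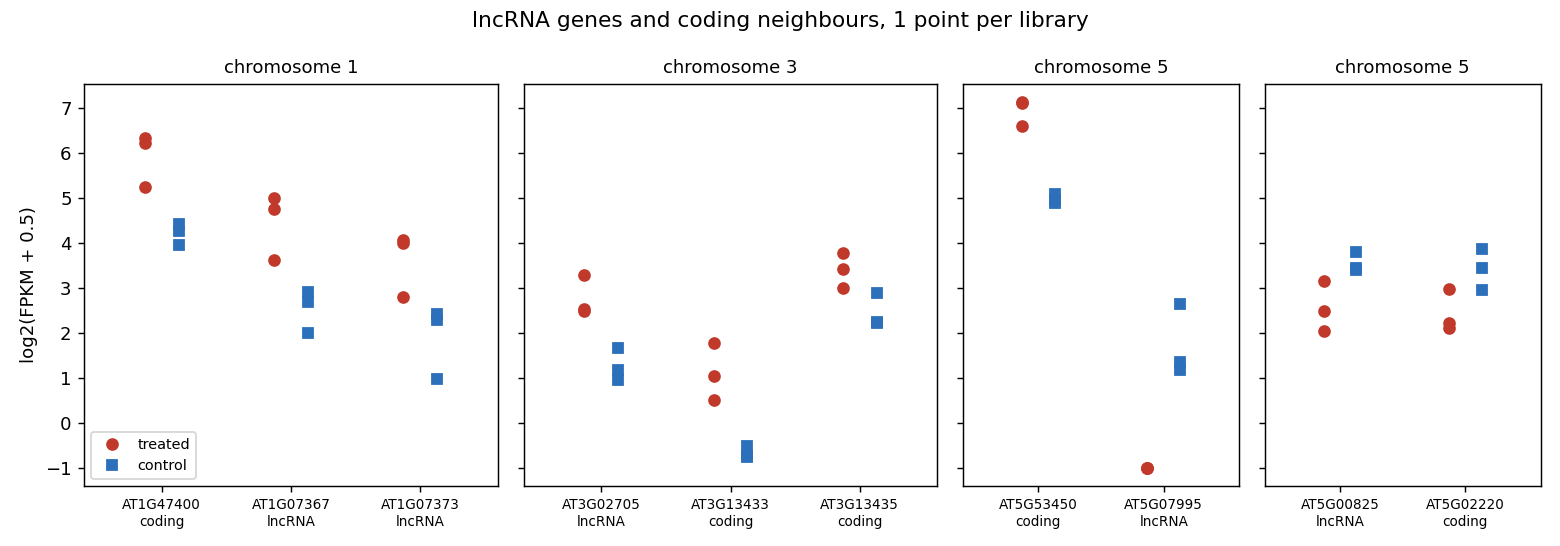
Level in each library (vertical axis, log2 of FPKM plus 0.5) of 5 lncRNA genes and the coding genes beside them, treated libraries as red circles left of control libraries as blue squares. On chromosome 1 every treated value of the coding gene AT1G47400 and of both lncRNA genes lies above every control value. On chromosome 5 AT5G53450 is higher in treated libraries and AT5G07995 is at 0 reads in all 3 of them.

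The promoter of AT2G08820 is printed because it holds the P1BS motif, the binding site of the phosphate starvation regulator PHR1, and because its rise was the largest on log2(FPKM + 0.5). On other scales AT1G05023, with 1 read over the controls, had the larger log2 change, at 4.03 against 2.97 in edgeR and 3.25 against 2.87 with a pseudocount of 0.1 FPKM. It covers 250 bases before the annotated start and 50 from it, at chr2:15403852-15404151, minus strand, TAIR10 coordinates, with the motif in capitals.
AT2G08820: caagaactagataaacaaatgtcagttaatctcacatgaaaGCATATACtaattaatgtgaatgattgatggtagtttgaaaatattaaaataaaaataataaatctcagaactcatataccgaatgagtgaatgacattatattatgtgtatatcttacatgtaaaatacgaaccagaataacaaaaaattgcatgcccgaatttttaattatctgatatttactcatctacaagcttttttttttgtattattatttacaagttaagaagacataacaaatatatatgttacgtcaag
P1BS (GNATATNC, searched on both strands) was found in 2 of the 11 promoters of rising lncRNA genes (18.2%), the other being that of AT5G09785, which lies inside SRK2I. It was in 0 of the 12 promoters of falling genes, 8.06% of the 248 others of the 271 and 6.25% of 32660 promoters of the same length over all genes of the nuclear chromosomes. The G-box (CACGTG) was in 0 of 11 and 1 of 12, against 7.12% of all promoters. The W-box (TTGACC or TTGACT, both strands), the element that WRKY factors bind, was in 1 of 11 and 3 of 12, against 31.7% of all promoters. A match is a run of letters and not a tested binding site.

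The authors' deposited table of 2104 genes past their own thresholds lists 12 of the 271 genes (4.43%, against 9.28% of the 20007 genes that averaged at least 0.5 FPKM), 8 higher and 4 lower in treated seedlings. Both comparisons used the same libraries, so a shared sign is no independent support. All 12 had the same sign in limma on FPKM, and 10 of them are among the 23. The other two are AT1G07373 and AT5G03615. AT5G03615 (chromosome 5, 7891346 to 7891734, plus strand) had 4.25, 0.117 and 6.20 FPKM in treated libraries and 0.128, 0 and 0.111 FPKM in controls. Treated library 2 was as low as the controls, and the log2 change of 2.23 did not pass (SE 0.814, limma adjusted p = 0.117).

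The non-coding RNAs with a described role that were looked up lay outside the 271 genes. Of 17 gene IDs looked up, 16 were in the table and only 2 had the biotype lncRNA, AT5G01675 on the strand opposite FLC and AT1G69572 on the strand opposite CDF5, both at or under 0.0814 FPKM in every library. The target mimics IPS1 and AT4, listed as protein-coding in the table, rose by 2.13 and 1.66 on the log2 scale. IPS1 had 16.4, 18.7 and 16.9 FPKM in treated libraries against 3.85, 2.67 and 4.44 FPKM in controls (SE 0.174, limma adjusted p = 0.000154). The precursors of trans-acting small RNAs TAS1B and TAS4 (AT3G25795), listed as ncRNA, fell by 0.52 and 1.48, and 10 of the 16 were tested in all. Of the genes described as targets or neighbours of such RNAs, 12 of 16 were tested and 2 fell, CYP71A16 (log2 change -1.87) and CYP705A12 (-1.49). None of 6 genes of the trans-acting small RNA machinery passed: their log2 changes ran from -0.31 to 0.39 and their limma adjusted p was 0.163 or more.

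Root and leaf marker genes were both detected in these seedlings. All 8 root markers were tested, and 7 fell and 0 rose in treated seedlings. Their summed level was 469.8 to 531 FPKM in treated libraries and 1994 to 2496 FPKM in controls, nearly all of it from BGLU23. Without BGLU23 the sum of the other 7 was 14.7 to 17.9 FPKM in treated libraries and 43.8 to 46.4 FPKM in controls. The falls ran from 0.59 on the log2 scale for PHO1 to 3.91 for CASP1, and MYB36 did not pass (log2 change -0.64, SE 0.277, limma adjusted p = 0.168). CASP1, a membrane protein of the root endodermis, had 0.203, 0.202 and 0.0568 FPKM in treated libraries and 9.73, 8.71 and 9.37 FPKM in controls. Of 7 leaf markers 1 rose and 0 fell, and their summed level was 14343 to 17006 FPKM in treated libraries and 13720 to 15850 FPKM in controls. In bulk seedlings fewer cells of a type and less RNA per cell cannot be told apart, and the part of the root markers in the changes of the 23 lncRNA genes was not tested. The first principal component of log2(FPKM + 0.5) over all tested genes took up 66.7% of the variance, and the groups lay on opposite sides of 0 along it, with treated library 2 at -30.9, nearer to the controls than treated libraries 1 and 3 at -55.2 and -46.9.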

How the data were processed

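RNA of 3 treated and 3 control seedling samples was analysed, with groups taken from the treatment label. The authors deposited 1 table of FPKM values per gene and library, and reads were aligned with HISAT2 2.0.5 to TAIR10, per the submitters' processing notes. Which program counted the reads, and with what strand setting, is not given in the sources used here. A comparison table that the authors deposited holds for each gene a log2 fold change with its p-value, raw and adjusted, and each library's signal, which is size-factor-scaled reads. It was used only to list which genes it holds and their sign.

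FPKM times gene length gave whole reads for 100% of values within 0.01, and totals were 19314683 to 23374306 reads per library. The 271 members and all gene lists were chosen with earlier results of these data known. Of the 271 IDs, all were in the TAIR10.1 reference, 269 with the same start and end, and all 271 had exon lengths equal to the authors' gene length. Overlap meant at least 1 base shared by gene spans on opposite strands, and the partner was the coding gene with the longest overlap. Exon positions and sequences come from RefSeq TAIR10.1.

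Genes with a mean of at least 0.5 FPKM entered 1 fit of log2(FPKM + 0.5), treated minus control, by limma 3.58.1 under R 4.3.3. Its moderated 2-sided test used the trend and robust options of eBayes, with Benjamini-Hochberg adjustment over all genes fitted. The fit was tested on simulated data. Named genes were the 10 largest rises and 10 largest falls past the threshold with groups that do not overlap, the 8 highest by mean level, members with a described role, pairs past the pair test and the 3 genes on each side of the 0.5 FPKM limit. Alternatives were other pseudocounts, filters and scalings, limma without trend and robust, a replicate block, each library left out, a stricter overlap, and edgeR 4.0.16 and DESeq2 1.42.0 on the recovered reads.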

Additional observations from a re-analysis of the deposited data

How the results depend on the processing

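Counts are given in the order higher, lower, overlapping a coding gene on the other strand, not overlapping, and pairs past the pair test. They were 11, 12, 9, 14 and 3. With each library left out in turn they ranged over 4 to 14, 2 to 14, 2 to 8, 7 to 17 and 1 to 3, and the genes passed over the whole table over 1518 to 3575, against 2895. Of the 23 genes, 12 were lost without control library 1, 14 without control library 2, 14 without control library 3, and 7, 6 and 9 without treated libraries 1, 2 and 3. On recovered reads edgeR gave 4 lower and 4 overlapping genes, and DESeq2 gave 5 lower and 3 overlapping. The pairs were 5 with a pseudocount of 1 FPKM, 1 with 0.1 FPKM and 5 in limma without trend and robust. The cause of these moves was not tested. Other filters, other scalings, the stricter overlap and a limit of 10 reads per gene, the last chosen after seeing the data, left the counts they apply to within 1.5 times. Over the settings tried for each of the 23 genes, the call was kept 269 times and lost 94 times. Other named genes stayed short of the threshold 122 times and passed it 6 times. No sign reversed.

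The labels do not say whether replicate numbers pair the samples. Deviations of same-numbered libraries correlated at 0.0697, 0.316 and 0.0853, and those of other pairings at -0.316 to 0.254. Treated libraries 2 and 3 correlated best with the control library of the same number, and treated library 1 with control library 3 (0.254). With the replicate number as a block, 3446 genes, 15 higher and 11 lower members, 11 overlapping members and 4 pairs passed. Lost under the block were AT1G06753 (limma adjusted p = 0.0527), AT1G05833 (0.0589) and the pairs of AT2G08965 with WRKY33 (0.0611) and of AT5G01595 with FER1 (0.0579). Depth limits many of the 271 genes: 119 had under 10 reads per library, where a few reads decide a value.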
